A study of Homo sapiens with 16 samples.

Results

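The aminoacyl-tRNA synthetases are the enzymes that load amino acids onto tRNAs. The 36 genes described here were 20 enzymes of the cytosol and 16 of the mitochondria, the latter with gene names ending in 2. The rule that picks them uses gene names and no measured value, although the family was proposed with earlier results of these data known, and they are 36 of 35075 genes that had a matched transcript. RNA was sequenced from HEK293, a human line from embryonic kidney, in 4 groups of 4 libraries (16 in all) that overexpressed GFP as the control, wild-type RNF43 (WT), or RNF43 carrying the frameshift R117fs or G659fs. RNF43 is a membrane ubiquitin ligase that removes Wnt receptors from the cell surface, and the series title states the aim of predicting what gene variants do from expression. The vector, the time after its introduction and whether cells were pooled or cloned are not given in the sources used here. Nor is whether replicates were separate cultures. The p-values below therefore set a difference between groups only against the spread among these libraries, and that spread may be technical.

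A synthetase activates its amino acid with ATP and transfers it to the matching tRNA, and several of them also remove a wrongly attached amino acid. Cytosolic and mitochondrial protein synthesis use separate enzymes for most amino acids, all encoded in the nucleus, although KARS and GARS each make both forms and are counted here with the cytosolic enzymes, and EPRS serves both glutamate and proline. Many cytosolic synthetase genes are known targets of ATF4, the transcription factor that is translated when eIF2alpha is phosphorylated during amino acid shortage or endoplasmic reticulum stress. ATF4 binds DNA with C/EBP proteins at a composite element.

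The core of that element, TGATGNAA, was searched on both strands of the RefSeq promoter windows on GRCh38.p14, each 300 bases long with 250 before and 50 after a transcription start. It was present in 7 of the 16 cytosolic members with a window (43.8%), in 1 of 14 mitochondrial members (7.14%) and in 1217 of 27305 genes of the whole promoter table (4.46%). DARS, LARS, VARS, YARS, AARS2 and VARS2 had no window. The 8 matches are shown because they mark the difference in sequence between the 2 classes, each as 30 bases read 5′ to 3′ on the strand of the gene, with the motif in capitals (TTGCATCA or TTTCATCA is the motif read on the other strand).
AARS, chr16:70289675-70289704, minus strand: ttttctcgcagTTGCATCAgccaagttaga
CARS, chr11:3057407-3057436, minus strand: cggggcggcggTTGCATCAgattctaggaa
GARS, chr7:30594834-30594863, plus strand: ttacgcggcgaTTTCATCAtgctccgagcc
IARS, chr9:92293692-92293721, minus strand: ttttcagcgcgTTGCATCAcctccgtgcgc
MARS, chr12:57488053-57488082, plus strand: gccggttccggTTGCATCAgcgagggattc
NARS, chr18:57621804-57621833, minus strand: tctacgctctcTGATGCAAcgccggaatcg
TARS, chr5:33440956-33440985, plus strand: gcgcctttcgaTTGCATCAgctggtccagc
YARS2, chr12:32756076-32756105, minus strand: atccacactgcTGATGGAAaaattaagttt

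In AARS the motif began 187 bases before the RefSeq start and in YARS2 197 bases before it, and GENCODE 29 placed neither in an exon. The motifs of CARS and MARS spanned the start, those of IARS and GARS began 13 and 33 bases before it, and those of TARS and NARS began at base 3 and base 15 of the transcript. All 6 of these lay in a noncoding part of an annotated exon of their own gene. A match is a description of the letters and not evidence of binding.

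Library depth ran from 20364357 to 46779570 estimated counts. RNF43 was at 13.2 to 50.3 CPM (counts scaled to library size after normalisation) in the GFP libraries and at 30190 to 94570 CPM in the 12 others, so RNF43 was high in every library labelled with it, which does not tell the 3 constructs apart. The HEK293 markers NEFL, NEFM, INA, PAX2 and VIM were detected in every library, and LHX1 had a median of 0.563 CPM. Lists of 5 markers each summed to 24.7 to 35.8 CPM for gut epithelium, mostly CDX2, and to 34.2 to 66.6 CPM for fibroblasts, mostly COL1A1, with MUC2 at 0. The gut sum was 24.7 to 26.4 CPM in GFP and higher in every RNF43 library, at 27.6 to 30.8 in WT, 27.2 to 35.8 for R117fs and 28 to 30.6 for G659fs. Their part in the results was not tested. In bulk libraries fewer cells of a kind and less RNA per cell cannot be told apart.

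R117fs replicate 4 lay apart. Its log2 values deviated from their group mean with an SD of 0.58 across genes, against at most 0.41 in any other library, and these deviations followed transcript GC content (Spearman rho 0.79 across genes, which are not independent). Across 35 members (VARS2 left out) the ratio of this library to R117fs replicates 1 to 3 also rose with GC content, with rho 0.89 over genes of a single library. On the log2 scale it ran from -0.63 for RARS to 0.57 for VARS. R117fs replicate 1 also differed from its group, at 71.2 to 80.0 for chi-square over its degrees of freedom when set against the other 3, where pairs within the GFP, WT or G659fs groups gave 3.53 to 19.8. On this measure R117fs replicate 4 gave 51.4 to 80.0 against the others of its group, no farther off than replicate 1. By a choice made after seeing the data, the counts of called genes below are also given without R117fs replicate 4. So are single genes where leaving it out changed a call. The shares of all genes called given with each comparison against GFP are the background for every list below. They are larger without that library.

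**Figure D1:**
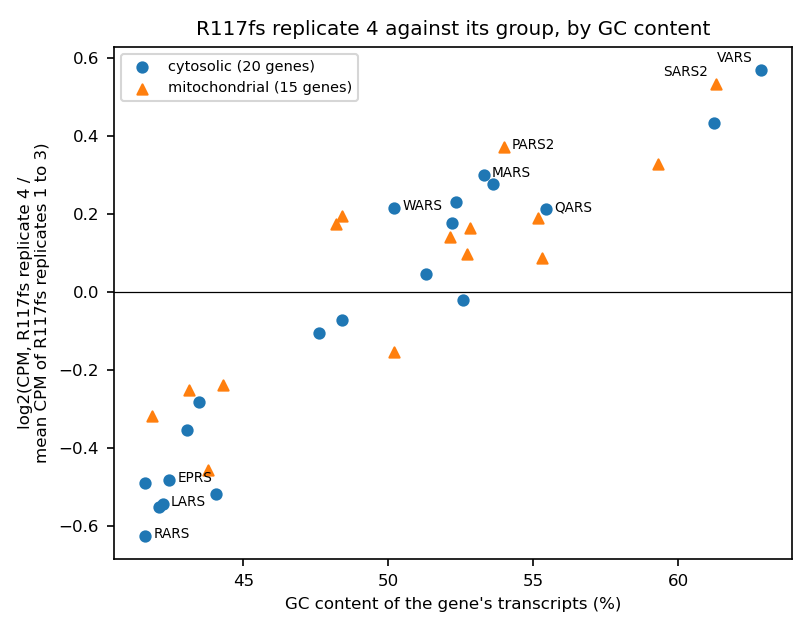
Each point is 1 synthetase gene (20 cytosolic, circles, and 15 mitochondrial, triangles, VARS2 left out), with the GC content of its transcripts in percent on the x axis and log2 of its CPM in R117fs replicate 4 over the mean CPM of R117fs replicates 1 to 3 on the y axis. The points climb from RARS (-0.63) to VARS (0.57), with 16 genes below 0 and 19 above.

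The classes differed in level before any comparison. In the GFP libraries, TPM, which is scaled for transcript length, ran from 16.5 for VARS to 482 for SARS among the cytosolic genes, with a median of 174. Among the mitochondrial genes it ran from 0.97 for VARS2 to 92.4 for IARS2, with a median of 19.9. SARS (482 ± 19.0 TPM; SD, n = 4) and YARS (477 ± 12.1) stood at the top and did not differ beyond their spread, and AARS (286 ± 8.69) and IARS (286 ± 5.47) came next. FARSA and FARSB, which encode the alpha and beta subunits of 1 enzyme, differed in level at 134 ± 10.2 and 35.8 ± 0.84 TPM. VARS2 had 4 to 27 estimated counts per library, of which 0.79% fell on protein-coding transcripts, so its values say little of the enzyme and it is left out of the plots.

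**Figure D2:**
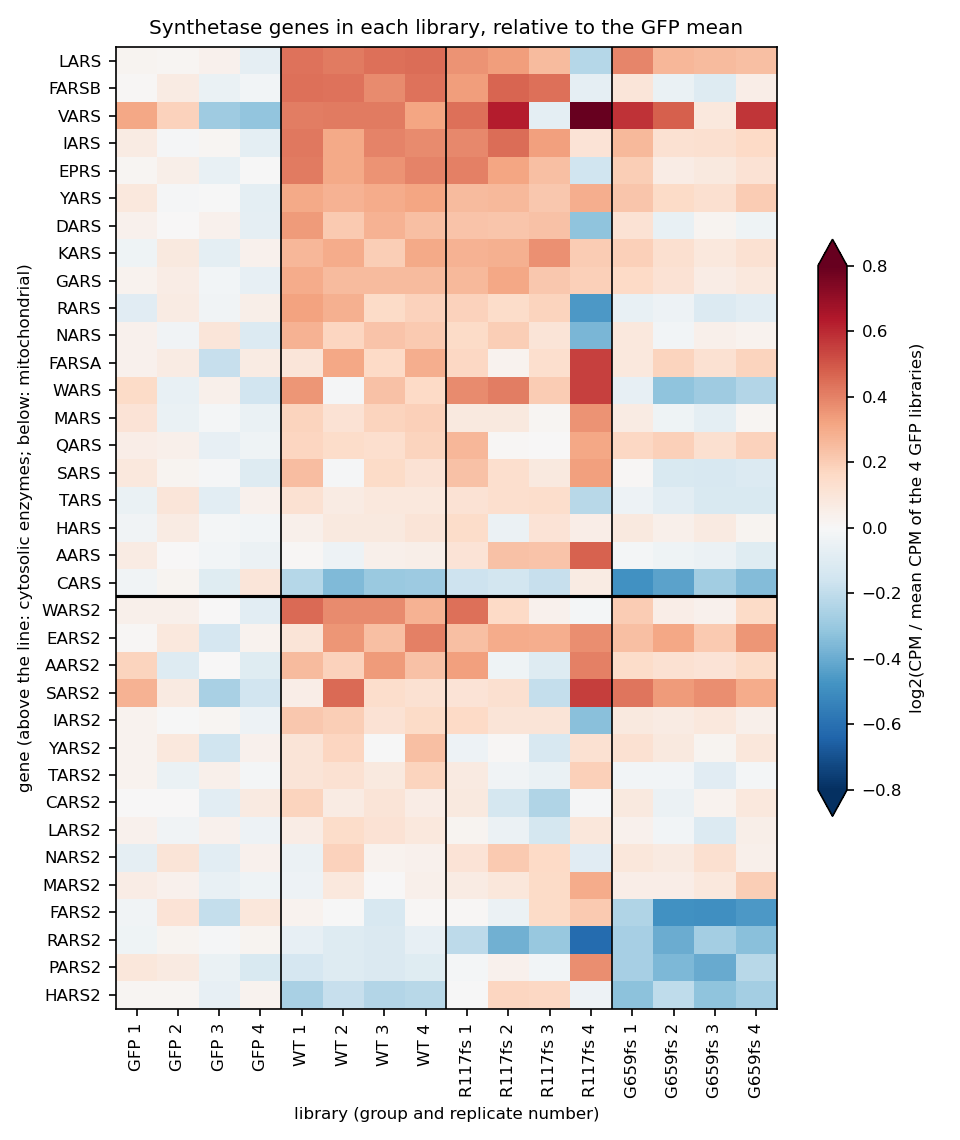
Rows are 35 synthetase genes (VARS2 left out), 20 cytosolic above the line and 15 mitochondrial below it, each ordered by its WT against GFP change, and columns are the 16 libraries. Colour is log2 of CPM over the mean CPM of the 4 GFP libraries, and the WT columns are red for 19 of the 20 cytosolic genes on average, with CARS the exception, while R117fs replicate 4 departs from its neighbours in many rows.

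In WT cells the cytosolic synthetases were mostly higher than in GFP cells. Of 20 genes, 8 rose (DARS, EPRS, FARSB, GARS, IARS, KARS, LARS and YARS) and 1 fell (CARS) at an edgeR adjusted p under 0.05, while 9.85% of all 16787 tested genes rose and 11.6% fell. The fold change was positive for 19 of the 20, with a median of 0.23 on the log2 scale against 0.00 for all genes. Of the 16 mitochondrial genes 2 rose (EARS2 and WARS2) and 1 fell (HARS2), with a median of 0.10. Without R117fs replicate 4, which belongs to neither group but enters the shared estimate of the spread, 13 cytosolic genes rose and 1 fell, and 5 mitochondrial genes rose and 1 fell, beside 18.2% and 17.7% of all genes.

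R117fs cells showed a cytosolic rise of similar median. Here 8 of 20 genes rose (AARS, FARSB, GARS, IARS, KARS, VARS, WARS and YARS) and 0 fell, beside 7.04% and 8.57% of all genes, and 19 of 20 were positive with a median of 0.21. Of the mitochondrial genes 1 rose (EARS2) and 1 fell (RARS2), with a median of 0.08. Leaving that group's replicate 4 out gave cytosolic counts of 13 higher and 1 lower (CARS) and the mitochondrial ones 3 and 1, beside 9.85% and 11.9% of all genes. With the 8 libraries of these groups alone, 0 members of either class passed in edgeR. At an unadjusted p under 0.05 in the fit of 16 libraries 13 cytosolic and 3 mitochondrial members did, beside 5036 of all 16787 genes. DESeq2 called 9 cytosolic and 2 mitochondrial members, beside 10.5% of all genes higher and 10.6% lower. Both of these mitochondrial counts were under the share of all genes.

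In G659fs cells the cytosolic class stood closer to GFP. LARS and YARS rose and CARS fell, 2 and 1 of 20, beside 11.6% of all genes that rose and 13.8% that fell, and the median was 0.04 with 13 positive. The mitochondrial class had 1 riser (EARS2) and 4 that fell (FARS2, HARS2, PARS2 and RARS2), with a median of 0.05. The cytosolic counts without R117fs replicate 4 were 6 and 2 and the mitochondrial 2 and 4, beside 19.7% and 19.8% of all genes. The 3 comparisons share the GFP libraries.

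Summed over the class, cytosolic synthetases took 5878 ± 178 CPM in GFP, 6894 ± 162 in WT, 6825 ± 171 in R117fs and 6131 ± 189 in G659fs (SD, n = 4). Every WT and R117fs library (lowest 6660) lay above every GFP library (highest 6081), and the G659fs libraries (5980 to 6404) overlapped GFP. The mitochondrial sums were 711 ± 13.6, 774 ± 12.9, 735 ± 24.9 and 722 ± 8.87 CPM in the same order. The cytosolic sum was 8.27 ± 0.11 times the mitochondrial one in GFP, 8.91 ± 0.32 in WT, 9.28 ± 0.16 in R117fs and 8.49 ± 0.18 in G659fs, and all 12 RNF43 libraries lay above the highest GFP library (8.35). The lowest WT library, at 8.46, and the lowest G659fs library, at 8.38, were each nearer to it than the SD of their own group.

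**Figure D3:**
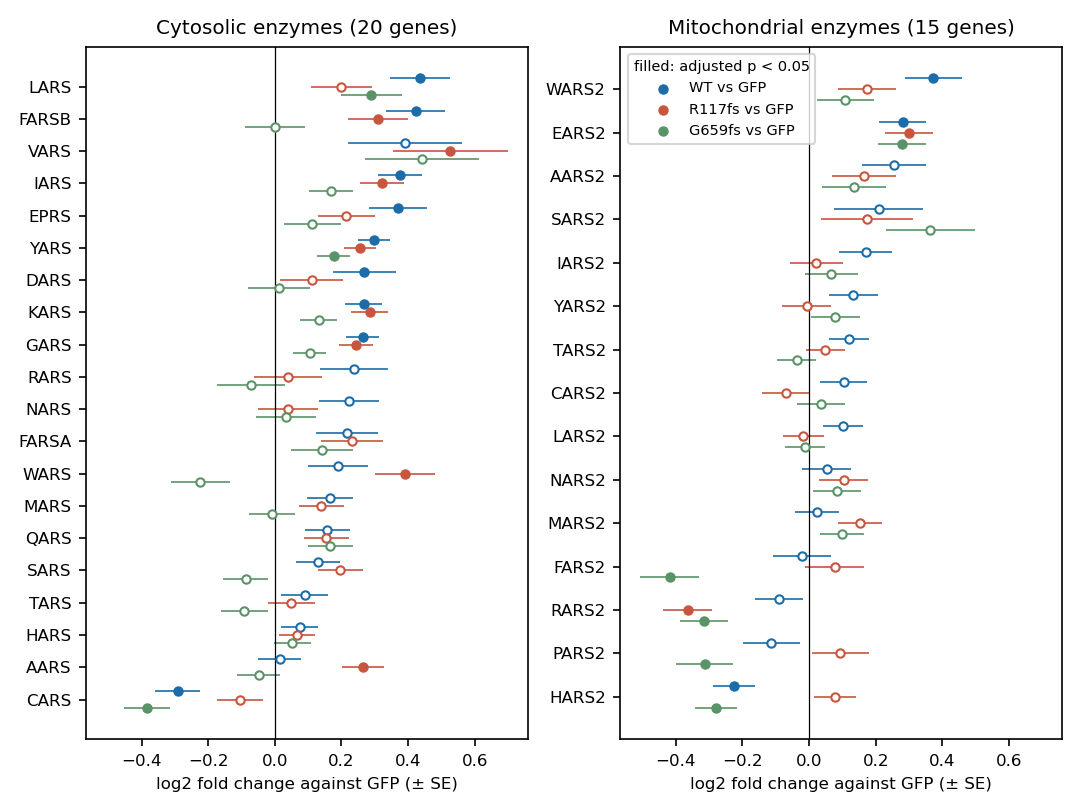
Points are log2 fold changes against GFP with their standard errors on the x axis, for 20 cytosolic genes (left) and 15 mitochondrial genes (right, VARS2 left out) in WT, R117fs and G659fs, and a filled point has an edgeR adjusted p under 0.05. Among cytosolic genes all filled points but those of CARS lie right of 0, and among mitochondrial genes they lie on both sides, EARS2 on the right in all 3 groups.

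Among the cytosolic enzymes, YARS, which charges tyrosine (ENSG00000134684; chromosome 1, 32775237 to 32818153), was the 1 gene called in all 3 groups. It was at 598.2, 561.0, 562.9 and 535.1 CPM in GFP, 696.9, 684.9, 692.4 and 701.4 in WT, 673.2, 675.1, 655.5 and 690.1 in R117fs, and 657.8, 626.3, 616.1 and 650.5 in G659fs. All 12 libraries with RNF43 lay above all 4 GFP libraries. The edgeR changes were 0.30 ± 0.05 (adjusted p = 0.000383), 0.26 ± 0.05 (0.00204) and 0.18 ± 0.05 (0.0129).

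IARS charges isoleucine (ENSG00000196305; chromosome 9, 92210207 to 92293756), and its 30 bases with the motif are among those above. Its CPM was 715.4, 680.1, 690.9 and 646.7 in GFP, 916.2, 843.4, 899.2 and 887.1 in WT, 892.8, 932.1, 857.9 and 736.0 in R117fs, and 818.7, 744.3, 747.2 and 763.3 in G659fs. No library with RNF43 overlapped GFP, but R117fs replicate 4 was the lowest of its group and G659fs sat between GFP and WT. In edgeR WT rose by 0.38 ± 0.07 (adjusted p = 0.000704) and R117fs by 0.32 ± 0.07 (0.00333), and G659fs at 0.17 ± 0.07 did not pass (0.0686). It did without R117fs replicate 4 (0.00601).

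LARS, the leucine enzyme (ENSG00000133706; chromosome 5, 146113038 to 146182660), belongs with IARS and EPRS to the multi-synthetase complex. It was at 367.1, 366.2, 370.1 and 344.9 CPM in GFP, 489.7, 483.7, 491.8 and 494.3 in WT, 464.3, 457.1, 431.1 and 309.2 in R117fs, and 474.9, 435.6, 432.4 and 427.3 in G659fs. WT and G659fs did not overlap GFP, and in R117fs replicate 4 alone lay below it. WT rose by 0.44 ± 0.09 (edgeR adjusted p = 0.00254) and G659fs by 0.29 ± 0.09 (0.0264), while R117fs was at 0.20 ± 0.09 (0.15), and at 0.32 ± 0.05 (7.28e-05) without replicate 4. The G659fs call was lost on leaving out any of GFP replicates 1, 2 and 4 and G659fs replicates 1 and 2.

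EPRS, which charges both glutamate and proline, was at 492.8, 504.8, 467.9 and 487.1 CPM in GFP, 652.1, 603.0, 625.7 and 642.6 in WT, 644.9, 607.4, 576.0 and 436.2 in R117fs, and 559.9, 507.9, 515.8 and 528.2 in G659fs. R117fs replicate 4 was again the 1 library below GFP. It rose by 0.37 ± 0.09 in WT (edgeR adjusted p = 0.00531) and was at 0.21 ± 0.09 in R117fs (0.0988), which became 0.32 ± 0.05 (0.000134) without replicate 4. The lysine enzyme KARS was at 160.8, 174.3, 156.1 and 168.8 CPM in GFP, 198.0, 203.1, 188.9 and 203.8 in WT, 200.1, 200.9, 212.9 and 190.2 in R117fs, and 188.0, 180.3, 175.0 and 179.5 in G659fs, with no RNF43 library below the highest GFP value. It rose by 0.27 ± 0.06 in WT (0.00254) and 0.28 ± 0.06 in R117fs (0.00252), and G659fs, at 0.13 ± 0.06 (0.0938), passed without R117fs replicate 4 (0.0207).

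Outside the complex, the glycine enzyme GARS was at 385.6, 395.2, 372.6 and 361.4 CPM in GFP, 464.9, 452.3, 450.9 and 450.6 in WT, 453.2, 469.6, 438.8 and 431.5 in R117fs, and 422.6, 409.9, 394.4 and 402.3 in G659fs. WT and R117fs stood apart from GFP and G659fs overlapped it by 1 library. The rises were 0.26 ± 0.05 (edgeR adjusted p = 0.00129) and 0.24 ± 0.05 (0.00348), and G659fs passed when R117fs replicate 4 was left out, at 0.11 ± 0.04 (0.0409). FARSB, the beta subunit of the phenylalanine enzyme, was at 82.3, 85.7, 78.9 and 80.8 CPM in GFP, 111.1, 110.9, 106.3 and 110.8 in WT, 103.1, 113.2, 111.4 and 77.8 in R117fs, and 87.8, 79.0, 76.2 and 84.9 in G659fs. It rose by 0.42 ± 0.09 in WT (0.00279) and 0.31 ± 0.09 in R117fs (0.0265, and 0.42 ± 0.05 without replicate 4), and G659fs was level with GFP at 0.00 ± 0.09. The R117fs call was lost in 7 of 24 alternative settings, 5 of them leaving out GFP replicate 1, 3 or 4 or R117fs replicate 2 or 3. Its partner FARSA passed in none with all 16 libraries, at 0.22 ± 0.09 in WT, 0.23 ± 0.09 in R117fs and 0.14 ± 0.09 in G659fs.

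With all 16 libraries, WARS and AARS were called in R117fs and not in WT or G659fs against GFP. WARS, the tryptophan enzyme (ENSG00000140105; chromosome 14, 100333788 to 100376805), was at 267.5, 230.6, 246.6 and 215.9 CPM in GFP, 306.9, 238.4, 282.7 and 268.2 in WT, 311.8, 318.8, 277.0 and 351.1 in R117fs, and 229.7, 192.4, 197.0 and 204.0 in G659fs. All R117fs libraries exceeded GFP, and 3 of 4 G659fs libraries lay below it. R117fs rose by 0.39 ± 0.09 (edgeR adjusted p = 0.0073), WT was at 0.19 ± 0.09 (0.141) and G659fs at -0.22 ± 0.09 (0.0766). WARS was lower in G659fs without R117fs replicate 4 (0.0368), with a replicate block (0.0483) and with the GC trend removed (0.0481). AARS, the alanine enzyme (ENSG00000090861; chromosome 16, 70252295 to 70289543), was at 628.4, 601.0, 592.1 and 580.9 CPM in GFP, 604.6, 584.2, 617.6 and 620.8 in WT, 648.8, 705.6, 702.7 and 831.2 in R117fs, and 593.3, 586.6, 580.8 and 562.1 in G659fs. WT and G659fs overlapped GFP and R117fs did not, with replicate 4 the highest, and the R117fs rise was 0.27 ± 0.06 (0.0097), or 0.19 ± 0.04 (0.00428) without it. It was higher in R117fs than in WT too, by 0.25 ± 0.06 (0.0235).

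CARS, the cysteine enzyme (ENSG00000110619; chromosome 11, 3000922 to 3057613), was the cytosolic gene that fell. Its CPM was 120.7, 124.8, 115.0 and 131.9 in GFP, 105.3, 96.3, 100.1 and 100.6 in WT, 109.7, 111.4, 108.2 and 128.9 in R117fs, and 88.0, 91.3, 101.5 and 96.6 in G659fs. Every WT and G659fs library lay below every GFP library, and R117fs overlapped GFP through replicate 4. It fell by 0.29 ± 0.07 on the log2 scale in WT (edgeR adjusted p = 0.00573) and by 0.38 ± 0.07 in G659fs (0.000664), and R117fs was at -0.10 ± 0.07 (0.324), or -0.16 ± 0.05 (0.0355) without replicate 4. CARS-201, its main transcript, held 51.6%, 53.4%, 52.3% and 53.3% of the gene's counts in GFP, WT, R117fs and G659fs.

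**Figure D4:**
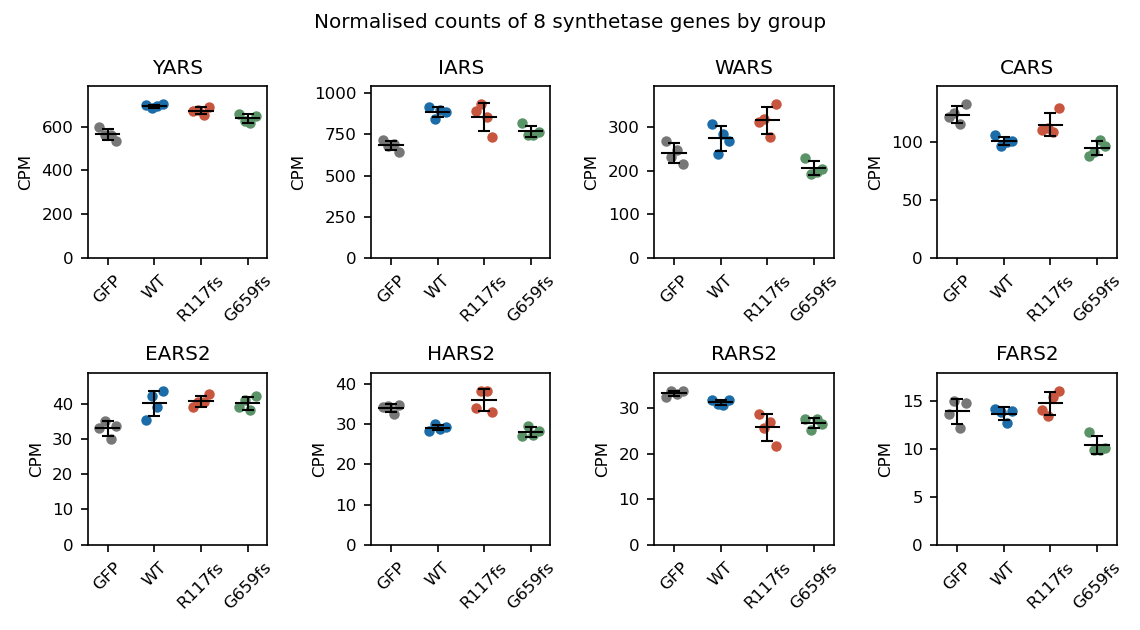
Points are single libraries, 4 per group, bars the mean and SD, and the y axis CPM from 0 for YARS, IARS, WARS, CARS (top) and EARS2, HARS2, RARS2, FARS2 (bottom). CARS is low in WT and G659fs, EARS2 is high in the 3 RNF43 groups, and FARS2 is low in G659fs, at 9.90 to 11.8 CPM.

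The other cytosolic calls were less steady. DARS, for aspartate, rose by 0.27 ± 0.09 in WT (edgeR adjusted p = 0.0486) and lost that call in 16 of 24 alternative settings. VARS, for valine, rose by 0.53 ± 0.17 in R117fs (0.0449), a call lost in 16 of 24 settings, among them the fit without R117fs replicate 4 (0.38 ± 0.18, 0.159), and its GFP libraries alone spread from 23.8 to 36.7 CPM. The 8 cytosolic genes called in no comparison with GFP over 16 libraries were FARSA, HARS, MARS, NARS, QARS, RARS, SARS and TARS. Their WT changes ran from 0.07 ± 0.05 for HARS, the histidine enzyme, to 0.24 ± 0.10 for RARS, the arginine enzyme. QARS, for glutamine, was at 0.16 ± 0.07 in WT, 0.15 ± 0.07 in R117fs and 0.17 ± 0.07 in G659fs and passed in none (0.104, 0.128 and 0.0767). Without R117fs replicate 4, FARSA, MARS, NARS, QARS and RARS were higher in WT, NARS, RARS and TARS in R117fs, and QARS in G659fs (0.014).

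Grouped by assembly, the 8 synthetases of the multi-synthetase complex (EPRS, IARS, LARS, MARS, QARS, RARS, KARS and DARS) rose in 5 cases in WT, 2 in R117fs and 1 in G659fs and fell in 0, with medians of 0.27, 0.18 and 0.12. The G659fs count, 12.5% of the list, was near the 11.6% of all genes. The rises numbered 8, 6 and 4 without R117fs replicate 4, where 18.2%, 9.85% and 19.7% of all genes rose. The 12 enzymes outside it had 3 higher and 1 lower in WT, 6 and 0 in R117fs, and 1 and 1 in G659fs, with medians of 0.20, 0.24 and 0.02. Without that library they were 5 and 1, 7 and 1, and 2 and 2. Of the complex's 3 scaffold proteins AIMP2 rose in WT by 0.26 ± 0.07 (edgeR adjusted p = 0.016) and in R117fs by 0.35 ± 0.07 (0.0042), and none was called in G659fs (in edgeR 0 passed at an unadjusted p under 0.05, and DESeq2 called 0). AIMP1 and EEF1E1 stayed short of the threshold at 0.23 ± 0.10 and 0.29 ± 0.13 in WT, and without R117fs replicate 4 all 3 were called in WT and in R117fs.

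By promoter, among the 7 cytosolic genes that hold it, 2 rose (GARS and IARS) and 1 fell (CARS) in WT with a median of 0.17, and among the 9 with a window and no match 3 rose and 0 fell with a median of 0.22. In R117fs the counts were 3 higher of 7 and 3 higher of 9, with medians of 0.14 and 0.21. Leaving R117fs replicate 4 out gave 4 higher of 7 and 6 of 9 in WT, and 5 of 7 and 5 of 9 in R117fs, with CARS lower in both. MARS, NARS and TARS hold the motif and were at 0.17 ± 0.07, 0.22 ± 0.09 and 0.09 ± 0.07 in WT with no call over 16 libraries. Without that library MARS (0.00635) and NARS (0.000771) passed in WT, and NARS (0.0298) and TARS (0.0426) in R117fs. MARS overlaps DDIT3 on the other strand in GENCODE 29, and since no strand setting is given in the sources used here their reads cannot be told apart where they overlap.

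Of the mitochondrial enzymes, EARS2, which charges glutamate (ENSG00000103356; chromosome 16, 23522014 to 23557731), was called higher in all 3 groups. It was at 33.2, 35.0, 30.1 and 33.7 CPM in GFP, 35.5, 42.2, 39.0 and 43.6 in WT, 39.0, 40.6, 40.4 and 42.8 in R117fs, and 39.1, 41.0, 38.2 and 42.1 in G659fs. No RNF43 library overlapped GFP, with WT replicate 1 the nearest. The changes were 0.28 ± 0.07 (edgeR adjusted p = 0.00966), 0.30 ± 0.07 (0.0097) and 0.28 ± 0.07 (0.00829). WARS2, for tryptophan, was at 24.66, 24.73, 24.03 and 22.68 CPM in GFP, 32.9, 31.2, 31.2 and 29.1 in WT, 32.5, 26.8, 24.6 and 23.7 in R117fs, and 27.6, 24.9, 24.6 and 26.7 in G659fs. It was high in all WT libraries and in R117fs replicate 1, and rose in WT by 0.37 ± 0.09 (0.00492).

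FARS2, the phenylalanine enzyme (ENSG00000145982; chromosome 6, 5261044 to 5829192), fell in G659fs. It was at 13.6, 15.1, 12.2 and 14.8 CPM in GFP, 14.2, 13.9, 12.8 and 14.0 in WT, 14.1, 13.5, 15.5 and 16.1 in R117fs, and 11.8, 9.94, 9.90 and 10.1 in G659fs. All 4 G659fs libraries lay below all 12 others. It fell by 0.42 ± 0.09 against GFP (edgeR adjusted p = 0.00238), 0.40 ± 0.09 against WT (0.0172) and 0.49 ± 0.09 against R117fs (0.00135) on the log2 scale. PARS2, for proline, fell in G659fs by 0.31 ± 0.09 against GFP (0.0124), from 17.8 to 20.8 CPM in GFP to 14.7 to 16.6 CPM, ranges that did not meet.

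HARS2, for histidine (ENSG00000112855; chromosome 5, 140691426 to 140699318), was low in WT and G659fs. It was at 34.4, 34.5, 32.6 and 34.8 CPM in GFP, 28.42, 30.00, 28.96 and 29.27 in WT, 34.1, 38.3, 38.3 and 33.2 in R117fs, and 27.1, 29.7, 27.2 and 28.2 in G659fs. WT and G659fs lay wholly below GFP and R117fs overlapped it. It fell by 0.22 ± 0.06 in WT (edgeR adjusted p = 0.0172) and by 0.28 ± 0.06 in G659fs (0.00381), and was 0.30 ± 0.06 higher in R117fs than in WT (0.00824). Its cytosolic counterpart HARS, which overlaps it head to head on the other strand, was at 73.0, 77.7, 73.5 and 73.2 CPM in GFP, 76.6, 78.4, 78.4 and 79.8 in WT, 82.4, 72.0, 80.2 and 77.0 in R117fs, and 78.5, 76.4, 78.0 and 75.6 in G659fs, and was not called. The main HARS2 transcript, HARS2-201, held 79.9% ± 1.63 of the gene's counts in GFP, 88.3% ± 2.74 in WT, 79.2% ± 4.22 in R117fs and 89.8% ± 2.66 in G659fs (SD, n = 4), so its share was high in the groups where the gene was low. The fall of the gene sum thus lay in good part in its other transcripts, and single transcripts were not tested.

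RARS2, for arginine (ENSG00000146282; chromosome 6, 87514378 to 87590003), was at 32.5, 33.8, 33.1 and 33.7 CPM in GFP, 31.8, 30.9, 30.7 and 31.8 in WT, 28.8, 25.5, 26.9 and 21.7 in R117fs, and 27.7, 25.2, 27.6 and 26.5 in G659fs. All libraries of the 3 RNF43 groups lay below GFP, those of WT by little. It fell by 0.36 ± 0.07 in R117fs (edgeR adjusted p = 0.00289) and by 0.32 ± 0.07 in G659fs (0.00396), and WT was at -0.09 ± 0.07 (0.403). Without R117fs replicate 4, the lowest library, R117fs stood at -0.29 ± 0.05 (0.000765).

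Over 16 libraries the 10 mitochondrial genes called in no comparison with GFP were AARS2, CARS2, IARS2, LARS2, MARS2, NARS2, SARS2, TARS2, VARS2 and YARS2. SARS2, for serine, was the nearest, at 0.36 ± 0.13 in G659fs (edgeR adjusted p = 0.0545), and was called there without R117fs replicate 4 (0.37 ± 0.11, 0.0111). IARS2, the mitochondrial gene with the highest TPM, was at 0.17 ± 0.08 in WT and 0.02 ± 0.08 in R117fs, and without that library it passed in both, as did AARS2 and TARS2 in WT. CARS2, for cysteine, was not called as a gene, and its main coding transcript, CARS2-201, held 46.6% ± 6.97 in GFP, 69.0% ± 3.30 in WT, 68.8% ± 7.79 in R117fs and 57.5% ± 8.97 of its counts in G659fs (SD, n = 4). The retained-intron transcript CARS2-206 held 21.0% ± 5.09 of the counts in GFP and 11.2% ± 2.86 in WT, and no test was made of these shares.

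Set side by side for the same amino acid, the cytosolic gene had the more positive change in 11 of 16 pairs in WT, 11 in R117fs and 8 in G659fs, with median differences of 0.17, 0.11 and 0.02 on the log2 scale. The R117fs values without replicate 4 were 12 pairs and 0.10. The pairs include VARS and VARS2, although the VARS2 values say little of the enzyme. That pair had the largest difference in each comparison, at 0.56, 0.51 and 0.59. EPRS was paired with both EARS2 and PARS2, and FARSA without FARSB with FARS2. The G659fs median lay between the asparagine pair at -0.05 and the tyrosine pair at 0.10, so its sign can turn on a single pair. In WT the proline pair stood at 0.37 ± 0.09 for EPRS and -0.11 for PARS2, and the leucine pair at 0.44 ± 0.09 for LARS and 0.10 ± 0.06 for LARS2. For alanine, cysteine, serine, threonine and tryptophan the mitochondrial gene had the more positive change in WT, for example AARS2 at 0.25 ± 0.10 (edgeR adjusted p = 0.0677) beside AARS at 0.01 ± 0.06 (0.894).

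Counted by ranges, 14 cytosolic genes in WT had all 4 libraries above all GFP libraries and 1 all below, where 17.1% and 16.7% of all genes did so. In R117fs the counts were 6 and 0, beside 7.29% and 9.19%, or 13 and 1 without replicate 4, beside 12.3% and 13.3%. They were in G659fs 7 and 1, beside 19.1% and 18.8%. For the 16 mitochondrial genes they were 6 and 2, 2 and 1 (4 and 1 without replicate 4), and 3 and 4.

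Between the RNF43 constructs, few members were called between R117fs and WT. Of the cytosolic genes AARS was higher in R117fs and none was lower, and of the mitochondrial genes HARS2 was higher and RARS2 lower (by -0.28 ± 0.07, edgeR adjusted p = 0.0278), beside 4.5% of all genes that were higher and 3.62% that were lower. The cytosolic median was -0.02. The same 3 genes were called without R117fs replicate 4. The AARS call was lost without WT replicate 2, and the RARS2 call in 8 of 24 alternative settings, among them leaving out any 1 WT library or R117fs replicate 2. Without R117fs replicate 1 the mitochondrial calls were 4, and with R117fs replicates 1 and 4 both left out, a choice made after seeing the data, they were 7, of which AARS2, CARS2, LARS2, RARS2, TARS2 and WARS2 were lower in R117fs. In the latter fit 9.74% of all genes were higher and 9.79% lower.

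G659fs was lower than WT in most of the cytosolic class, by margins that mostly did not pass. The change was negative in 18 of 20 genes with a median of -0.17, and 2 were called lower, FARSB (-0.42 ± 0.09, edgeR adjusted p = 0.0151) and WARS (-0.41 ± 0.09, 0.0163), with 0 higher, beside 2.32% of all genes higher and 3.35% lower. In 13 of the 20 all G659fs libraries lay below all WT libraries, where 14.5% of all genes did so. Without R117fs replicate 4, 14 cytosolic genes were called lower, among them LARS at -0.15 ± 0.04 and EPRS at -0.26 ± 0.05, and 6 mitochondrial genes, beside 11.2% of all genes. Leaving out other single libraries removed the calls: 0 cytosolic genes passed without WT replicate 1, G659fs replicate 2 or G659fs replicate 3, and 1 without WT replicate 3. At an unadjusted p under 0.05 in the full fit 12 cytosolic genes passed, beside 3779 of all 16787 genes. DESeq2 called 8 of them lower, beside 6.04% of all genes. Of the mitochondrial genes FARS2 was the 1 called in the full edgeR fit, lower in G659fs. That class leaned the same way, with 12 of 16 changes negative and a median of -0.09. In 8 of the 16 all G659fs libraries lay below all WT libraries, and in 0 above.

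G659fs was lower than R117fs in 5 cytosolic genes (AARS, CARS, FARSB, SARS and WARS) and 3 mitochondrial genes (FARS2, HARS2 and PARS2) and higher in 0, beside 6.35% of all genes higher and 8.02% lower. WARS had the smallest p of these, at -0.61 ± 0.09 (edgeR adjusted p = 0.000319), followed by HARS2 at -0.36 ± 0.06 (0.00124), FARS2, AARS at -0.31 ± 0.06 (0.00353), PARS2 at -0.41 ± 0.09 (0.00451) and SARS, the serine enzyme, at -0.28 ± 0.07 (0.0095). The SARS libraries ran from 565.2 to 671.0 CPM in R117fs and from 488.3 to 537.1 in G659fs, without overlap. Here 12 cytosolic and 3 mitochondrial genes were lower without R117fs replicate 4, beside 12% of all genes.

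Genes around the synthetases moved in part. ATF4 itself, whose control is mainly in translation, was at 1142, 1087, 1113 and 1047 CPM in GFP, 1262, 1219, 1224 and 1246 in WT, 1246, 996.7, 1060 and 1170 in R117fs, and 1129, 1147, 1094 and 1163 in G659fs. WT lay above GFP and the other groups overlapped it, and no change passed, WT being at 0.17 ± 0.06 (edgeR adjusted p = 0.0505). The WT change did pass without R117fs replicate 4 (0.17 ± 0.05, 0.0171). Of 7 eIF2alpha kinases and related sensors 0 were called against GFP in edgeR. At an unadjusted p under 0.05 there were 1, 1 and 2 in WT, R117fs and G659fs. That was under the share of all genes, 5726, 5036 and 6222 of 16787. DESeq2 called 1, 0 and 1. With R117fs replicate 4 left out edgeR called 1, 0 and 3 of them.

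The ATF4-arm regulators rose in 6 of 15 cases in WT, 4 in R117fs and 2 in G659fs, and 1 fell in G659fs, where 13.3% of the list against 11.6% of all genes rose. ATF3 rose in all 3, by 0.77 ± 0.07 (edgeR adjusted p = 3.81e-06), 0.46 ± 0.07 (0.000422) and 0.41 ± 0.07 (0.000582). TRIB3, a pseudokinase that restrains ATF4, rose by 0.68 ± 0.21 in WT (0.0298) and 0.82 ± 0.21 in R117fs (0.0152). DDIT3, the stress factor CHOP, ran from 46.9 to 76.9 CPM in GFP, 57.8 to 87.9 in WT, 85.6 to 111 for R117fs and 40.8 to 55.9 for G659fs, higher in R117fs by 0.61 ± 0.15 (0.0128) and lower in G659fs by -0.44 ± 0.16 (0.0441). Leaving R117fs replicate 4 out gave 9 risers of 15 in WT, 1 in R117fs (ATF3) and 2 in G659fs. The R117fs calls of TRIB3 (0.66 ± 0.23, 0.0579), DDIT3 (0.54 ± 0.18, 0.0555) and CEBPB were then lost, as was the G659fs call of DDIT3 (-0.44 ± 0.18, 0.0626).

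The ATF4-arm amino acid enzymes and transporters rose in 14 of 16 cases in WT, 3 in R117fs and 11 in G659fs, and 0 fell, with medians of 0.34, 0.21 and 0.27. With R117fs replicates 1 and 4 both left out, the R117fs median was 0.06, while WT and G659fs stayed at 0.34 and 0.27. ASNS, which makes asparagine, spanned 482.5 to 520.5 CPM in GFP, 649.5 to 703.8 in WT, 469.7 to 643.5 for R117fs (lowest in replicate 4) and 642.9 to 669.4 for G659fs. It rose by 0.44 ± 0.08 in WT (edgeR adjusted p = 0.000642) and 0.39 ± 0.08 in G659fs (0.00138), and R117fs was at 0.23 ± 0.08 (0.0514), or 0.32 ± 0.04 (6.72e-05) without replicate 4. PYCR1, of proline synthesis, rose by 0.53 ± 0.09 in both R117fs (0.000979) and G659fs (0.000464). In G659fs this list had 11 of 16 risers and the cytosolic synthetases 2 of 20. The enzyme and transporter counts without R117fs replicate 4 were 14, 6 and 14, where 18.2%, 9.85% and 19.7% of all genes rose.

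Of 10 genes that work beside the synthetases, among them editing and mitochondrial charging factors, 2 rose in WT (PSTK by 0.37 ± 0.07, edgeR adjusted p = 0.00186, and DTD1, which removes D-amino acids, by 0.40 ± 0.09, 0.00495). In R117fs 1 rose (DTD1, 0.30 ± 0.09, 0.0373), and in G659fs GATC rose by 0.18 ± 0.05 (0.0157) and GATB, its partner in mitochondrial glutaminyl-tRNA formation, fell by 0.27 ± 0.08 (0.0188). The counts of 1 in 10 lay near the share of all genes. Without R117fs replicate 4, 3 rose in WT, 1 in R117fs, and 2 rose and 2 fell in G659fs. The cytosolic elongation factors had 4 of 9 risers in WT, 2 in R117fs and 2 in G659fs with 0 lower, and with R117fs replicate 4 left out 5, 2 and 3 with 1 lower in each. EIF5A was among them in each, at 0.29 ± 0.06, 0.21 ± 0.06 and 0.31 ± 0.06. Of 11 mitochondrial translation factors 2 rose and 1 fell in WT, 2 and 1 in R117fs, and 1 and 1 in G659fs, the last at or under the share of all genes. With R117fs replicate 4 left out these were 4 and 3, 3 and 1, and 2 and 1. TUFM, the mitochondrial elongation factor, rose by 0.24 ± 0.08, 0.38 ± 0.08 and 0.32 ± 0.08, and GFM2, a ribosome recycling factor, fell by 0.47 ± 0.08 in R117fs and 0.59 ± 0.08 in G659fs.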

How the data were processed

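Total RNA of 16 libraries was sequenced, and the submitters' processing notes name kallisto 0.45.1 and GRCh38. The deposited estimated counts (not whole numbers, per the file headers) are not normalised, and the deposited TPM values are scaled by the effective length that is also deposited. The annotation release and the strand setting are not given in the sources used here. Of 178136 transcripts 162453 (91.2%) matched GENCODE 29 by identifier without version. The rest, 1.904% to 2.216% of a library's counts, were left out. Estimated counts were summed per gene and rounded, and 16787 genes passed filterByExpr. All 36 members passed.

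Groups were compared with edgeR 4.0.16 (R 4.3.3) in 1 fit of 16 libraries: TMM, estimateDisp, robust quasi-likelihood fit and test, Benjamini-Hochberg over all genes, called at an adjusted p under 0.05. The common biological coefficient of variation was 0.103. Changes are log2 fold changes ± SE, taken from the test. CPM values are after TMM. The procedure was tested on simulated counts with known changes. Lists are described by counts and medians, with no set test. The members and lists were chosen with earlier results of these data known, although the rule for members reads gene names alone. Values per library are given for up to 10 cytosolic and 5 mitochondrial members called against GFP, by smallest adjusted p, and for HARS as an example not called. Other lists are named by up to 4 called genes.

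Alternatives were DESeq2 1.42.0, its size factors in edgeR, no low-count filter, a replicate block, an effective length offset, a GC trend removed per library (lowess span 0.3), the 8 libraries compared, and leaving out each library. Reads of overlapping genes on opposite strands cannot be told apart. Some markers of HEK293 and of haematopoietic cells, and the sums of those lists, are not reported here.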

Additional observations from a re-analysis of the deposited data

Results flagged for a closer look

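In each group of 4 libraries, a member's highest or lowest value was set apart where its gap to the nearest other library exceeded, as a share of the group's range, Dixon's critical value for 4 samples. This held for 18 of 144 groups, and chance alone gives about 1 in 20. Of the 18, 8 were R117fs replicate 4. That library was high for CARS (128.9 CPM, the others 108.2 to 111.4), MARS (497.5, the others 392.5 to 410.1), PARS2 (25.12, the others 19.12 to 19.91) and VARS2 (0.8218, the others 0.3627 to 0.4265). It was low for DARS (93.89 CPM, the others 137.2 to 138.0), RARS (57.42, the others 87.19 to 89.4), TARS (288.7, the others 365.5 to 371.2) and IARS2 (176.8, the others 239.2 to 249.1).

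In the GFP group FARSA was low in replicate 3 (138.5 CPM), HARS high in replicate 2 (77.7) and LARS low in replicate 4 (344.9). In WT, FARSB was low in replicate 3 (106.3 CPM, the others 110.8 to 111.1), GARS high in replicate 1 (464.9), MARS low in replicate 2 (420.3) and VARS low in replicate 4 (36.78). In G659fs, SARS was high in replicate 1 (537.1 CPM), FARS2 high in replicate 1 (11.81, the others 9.90 to 10.14) and TARS2 low in replicate 3 (86.46).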

How the results depend on the processing

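Of 44 called member values 0 reversed in any of 24 alternatives, and 21 held in all of them. The 8 libraries alone lost 17, and the share of all genes called in that setting is not given here. In counts changed, given here as cytosolic and then mitochondrial, 9 and 3 in WT against GFP became 15 and 6 with the GC trend removed or with 8 libraries. R117fs against GFP went from 8 and 2 to 14 and 4 with the GC trend removed and 0 and 0 with 8 libraries. G659fs against GFP had 3 cytosolic calls, and 10 with the GC trend removed or with 8 libraries, and 8 in DESeq2. R117fs against WT (1 and 2) gave 3 and 5 with the GC trend removed, 0 and 0 with 8 libraries, 2 cytosolic in DESeq2, and 1 mitochondrial with no filter or the effective length offset. G659fs against WT (2 and 1) gave 13 and 5 with the GC trend removed, 14 and 7 with 8 libraries, and 8 and 4 in DESeq2. G659fs against R117fs had 5 cytosolic calls, 12 with the GC trend removed and 2 with 8 libraries. The cause was not tested. With the GC trend removed, 19.1% of all genes rose and 18.4% fell in WT against GFP. There 31.2% of the mitochondrial members rose and 6.25% fell. The shares of all genes were 13.4% and 14% in R117fs against GFP, and 20.2% and 19.9% in G659fs against GFP. Between constructs they were 8.6% and 8.84% in R117fs against WT, and 8.89% and 10.4% in G659fs against WT. G659fs against R117fs had 14.5% and 14.6%. DESeq2 called 13.1% of all genes higher and 14.5% lower in G659fs against GFP. Its shares were 6.55% and 5.55% in R117fs against WT, and 4.7% and 6.04% in G659fs against WT. A replicate block gave 6 cytosolic calls in G659fs against GFP, beside 12.5% of all genes higher and 14.6% lower. In G659fs against WT it gave 5 cytosolic and 2 mitochondrial calls, beside 3.52% and 4.48%. The replicate block moved no other count by over 1.5 times. The replicate numbers showed at most a weak pairing. Same-numbered libraries correlated at -0.062 to 0.16 (median 0.034), and 5 of 24 pairs were over 0.1. Different-numbered libraries correlated at -0.203 to 0.179 (median -0.016), with 6 of 72 pairs over 0.1. Of 16 libraries 8 lay closest to their own number. Whether this is a pairing was not tested.

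Leaving out single libraries gave, for WT against GFP, 8 to 14 cytosolic and 2 to 6 mitochondrial calls, for R117fs against GFP 6 to 14 and 2 to 4, and for G659fs against GFP 2 to 8 cytosolic. R117fs against WT gave 0 (without WT replicate 2) to 1 and 1 to 4 (4 without R117fs replicate 1, 1 without R117fs replicate 2 or any WT library). G659fs against WT gave 0 to 14 and 0 to 6 (mitochondrial 0 without WT replicate 1, G659fs replicate 2 or G659fs replicate 3, and 3 without R117fs replicate 1), and G659fs against R117fs 4 to 12 cytosolic. Except in R117fs against WT, these highest values came without R117fs replicate 4. The shares of all genes beside those highest values are given above. The shares without other single libraries are not given here. With R117fs replicates 1 and 4 both left out, a choice made after seeing the data, WT against GFP had 14 cytosolic and 6 mitochondrial calls. R117fs against GFP had 13 and 4, G659fs against GFP 9 and 6, and R117fs against WT 2 and 7. G659fs against WT had 14 and 6, and G659fs against R117fs 13 and 5. In the same order, all genes were higher in 19.7%, 11.3%, 21.3%, 9.74%, 11.3% and 12.5%. They were lower in 19.2%, 11.4%, 20.7%, 9.79%, 12.7% and 13.8%. Depth limited VARS2 most.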
